A study of Homo sapiens with 17 samples.

Results

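Lysosome and autophagy genes of the class controlled by the transcription factor TFEB were followed in L363 cells, an established human line of malignant plasma cells, over 6 treatment groups. The module holds 42 genes: soluble lysosomal enzymes, lysosomal membrane proteins, subunits of the proton pump, TFEB itself with its relative TFE3, and genes of autophagosome formation. A gene was taken from the probe sets annotated to it alone, and its probe set with the highest mean over the 17 arrays stood for it. This gave values for 41 of the 42 members among 19775 genes. The beta-galactosidase gene GLB1 has only a probe set that it shares with another gene and is not analysed here. The 41 members have 93 probe sets between them, and 25 members have more than 1.

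Total RNA was measured after 48 hours of culture. The cells received 0.5 uM MS275 (entinostat, an inhibitor of class I histone deacetylases), 1 nM rapamycin, 10 nM rapamycin (an inhibitor of the kinase mTOR), 1 nM rapamycin with 0.5 uM MS275, 10 nM rapamycin with 0.5 uM MS275, or no drug (control). Each group holds 3 arrays except the 10 nM combination, which holds 2 because the submitters dropped 1 array at quality control. All groups are of 1 cell line. The labels do not say whether replicates came from separate cultures, so the p-values measure the spread between these arrays, which may be technical.

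Lysosomes digest material delivered by endocytosis and autophagy with acid hydrolases, which work at the low pH that a proton pump in the lysosomal membrane keeps up. The kinase complex mTORC1 sits on the lysosome and phosphorylates TFEB and TFE3, which holds them in the cytoplasm. When mTORC1 is inactive they enter the nucleus and bind promoters of lysosome and autophagy genes at a short motif with the core CACGTG. Plasma cells and myeloma cells make much secretory protein, and autophagy is one of the routes by which they clear it.

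Median log2 signals ran from 5.09 to 5.36 over the 17 arrays. Replicate 1 of the 1 nM combination and replicate 1 of control stood apart, with a narrower spread of values over all probe sets (SD 2.14 to 2.15) than the other 15 arrays (SD 2.27 to 2.37). Leaving out these 2 narrow arrays turned the sign of 36 of the 205 member changes against control, in 20 of the 41 members. None of those 36 had passed the threshold, and values without the 2 arrays stand beside the members concerned. Markers of plasma cells had mean log2 signals from 8.09 (CD38) to 12.6 (MZB1), with IRF4 at 12.5 and SDC1, which encodes CD138, at 12.3. Markers of other cell types ran from 4.30 (MS4A1) to 7.09 (CD22) for B cells, from 4.43 (CD3E) to 5.14 (CD3D) for T cells, from 4.07 (TYROBP) to 6.32 (AIF1) for myeloid cells, from 2.72 (EPCAM) to 6.68 (CDH1) for epithelial cells and from 4.78 (COL1A2) to 6.92 (COL1A1) for fibroblasts. These are signals of different probe sets and are not levels that can be set against each other. The macrophage receptor gene CSF1R was higher by 1.00 with MS275 (adjusted p = 0.0236, limma) and by 0.91 with the 1 nM combination (adjusted p = 0.0238), while CD14, CD163 and TYROBP stayed between 3.57 and 5.20 on all arrays. It was the only 1 of 7 myeloid markers called in those groups. The mean over the 7 markers ran from 4.86 to 4.98 on the MS275 arrays, from 4.87 to 5.19 on those of the 1 nM combination and from 4.79 to 5.26 in control. Among the 8 plasma cell markers CD38 was lower, with log2 changes of -1.49, -1.36, -0.90 and -1.33, with 1 nM and 10 nM rapamycin and the 1 nM and 10 nM combination, the groups in which NEU1 was also lower (highest adjusted p = 0.0275). SDC1 was lower in the 10 nM combination (-1.45, adjusted p = 0.0495). Group means of PRDM1, XBP1 and POU2AF1 were above control in every treated group, PRDM1 at 9.35 to 10.01 against 8.37. The mean over the 8 markers ran from 11.09 to 11.38 on the control arrays and from 11.23 to 11.46 with MS275. It ran from 11.14 to 11.35 with 1 nM and from 11.20 to 11.44 with 10 nM rapamycin. In the combinations it ran from 11.08 to 11.30 at 1 nM and from 10.99 to 11.09 at 10 nM. The part of these marker changes in the results was not tested. In bulk RNA, fewer cells of a type and less RNA per cell cannot be told apart.

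Few members passed the test, and the 4 that did in a comparison with control are all glycosidases, enzymes that remove sugars from glycoproteins and glycolipids. The sialidase gene NEU1 was lower in each of the 4 groups that received rapamycin. The alpha-galactosidase gene GLA and the fucosidase gene FUCA2 were lower in both combinations. The fucosidase gene FUCA1 was higher with MS275 alone. NEU1, GLA and FUCA2 have 1 probe set each, so their falls could not be read on a second. No protease, lipid-degrading enzyme, membrane protein, proton pump subunit, transcription factor or autophagy gene among the members passed the threshold, an adjusted p under 0.05 over all 19775 genes in a limma fit of all 17 arrays. With the replicate number as a block, the protease gene CTSA passed as well in the 1 nM combination.

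Against control, MS275 had 1 member past the threshold (higher, FUCA1), where 1.49% of all genes passed. With 1 nM rapamycin it was 1 member (lower, NEU1), where 0.101% of all genes passed. With 10 nM rapamycin it was also 1 (lower, NEU1), where 0.435% of all genes passed. The 1 nM combination had 3 members lower, where 2.70% of all genes passed, and the 10 nM combination had 3 lower, where 3.30% of all genes passed. As a share of the 41 members, 1 member is 2.44% and 3 members are 7.32%, so the share with MS275 was near that of all genes. At an unadjusted p under 0.05 the members numbered 5 with MS275 (10.8% of all genes), 8 with 1 nM rapamycin (8.05% of all genes), 6 with 10 nM rapamycin (6.96%), 11 with the 1 nM combination (12.6%) and 12 of 41 with the 10 nM combination (14.2%). As shares of the 41 members, these counts were near that of all genes with MS275 and above it in each group with rapamycin. Of the 41 members, 40 had a mean log2 signal above the median gene mean of 6.07. Shares among genes of like signal were not compared, so the part of signal level in all these shares was not tested. The members were also chosen with earlier results of these data known. The 5 comparisons with control share the control arrays. Median log2 changes of the 41 members against control were -0.04 with MS275 (all genes -0.05), -0.21 with 1 nM rapamycin (all genes -0.12), -0.09 with 10 nM rapamycin (all genes -0.07), -0.05 with the 1 nM combination (all genes 0.02) and -0.18 with the 10 nM combination (all genes -0.08). The median of the members was thus close to that of all genes in each comparison.

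The arrays of treated and control cells did not overlap for 2 members with MS275, where the same held for 11.0% of all genes. Non-overlapping members numbered 8 with 1 nM rapamycin (all genes 12.2%), 5 with 10 nM rapamycin (8.05%), 10 with the 1 nM combination (10.6%) and 15 with the 10 nM combination (21.5%), the group of 2 arrays. As shares of the 41 members, the counts were below that of all genes with MS275 and above it in each group with rapamycin. The limits from signal level and from the choice of members hold for these shares too. In fits that held only the 2 groups compared, no member passed in any comparison, and the adjusted p-values of the 13 changes called here ran from 0.15 to 0.512. The calls rest on the spread estimated over all 6 groups.

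**Figure D1:**
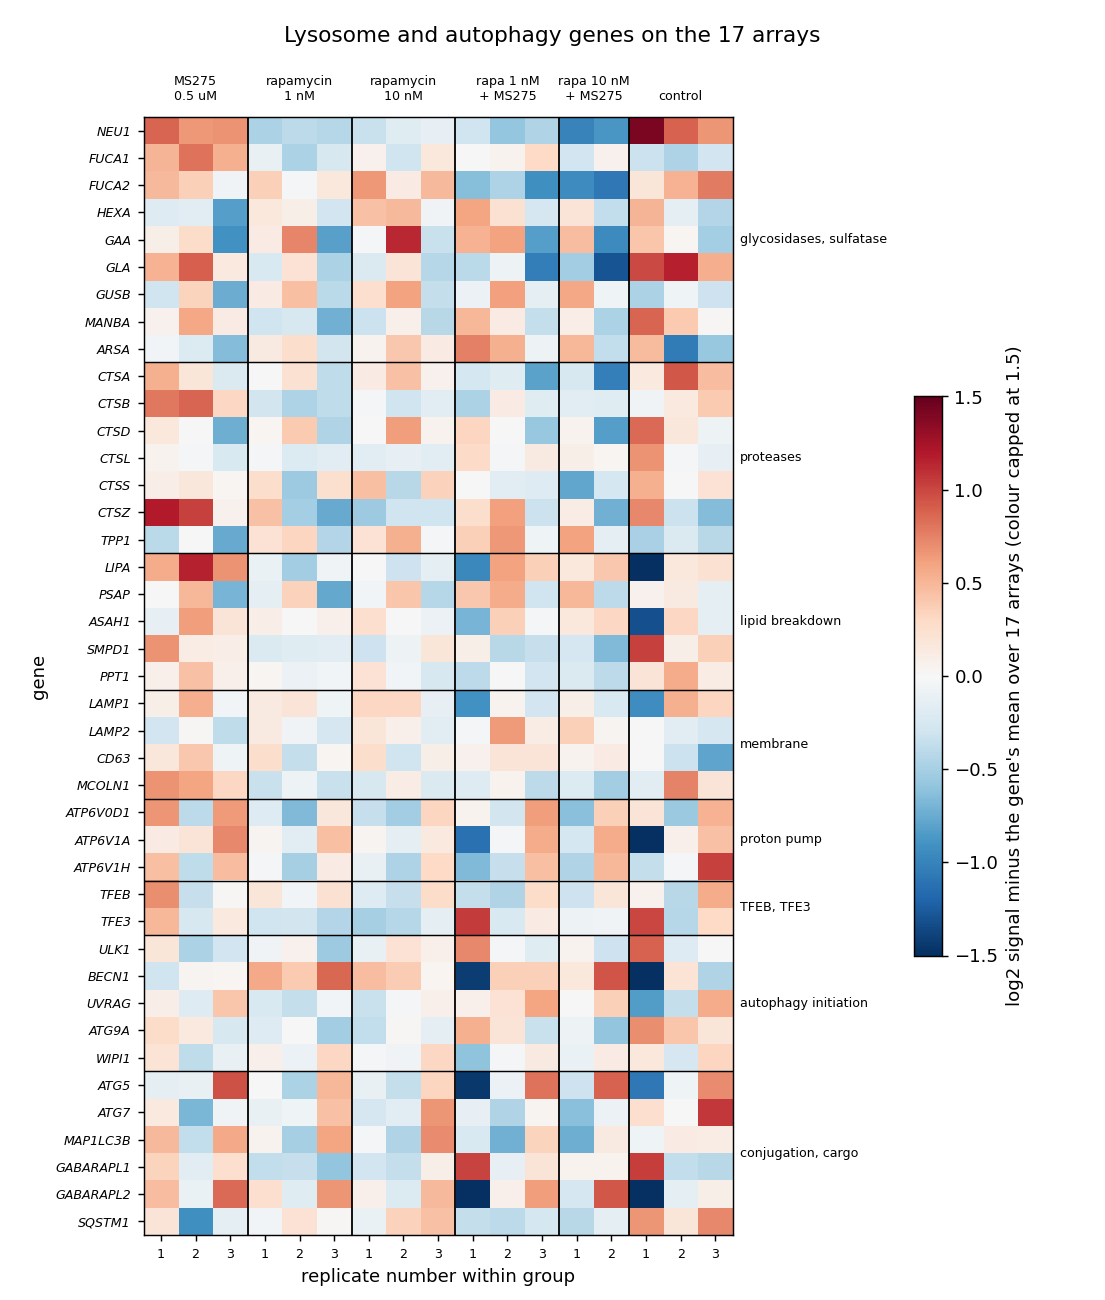
Log2 signal of the 41 members (rows, by role) on each of the 17 arrays (columns, by group, control at the right), as the deviation from the gene's mean over all arrays, in log2 units on the colour scale. NEU1 and GLA are low in the combinations and high in control, and replicate 1 of the 1 nM combination and of control differ from their groups for members such as BECN1 and GABARAPL2.

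NEU1 encodes the lysosomal sialidase, which takes terminal sialic acids off glycoproteins and is active in a complex with the protease encoded by CTSA. Its log2 signals were 10.27, 10.05 and 10.07 with MS275, 8.92, 9.0 and 8.97 with 1 nM rapamycin, 9.06, 9.22 and 9.27 with 10 nM rapamycin, 9.09, 8.82 and 8.95 with the 1 nM combination, 8.40 and 8.52 with the 10 nM combination, and 10.81, 10.28 and 10.06 in control. All 11 arrays with rapamycin lay below all 6 arrays without it. The 2 arrays of the 10 nM combination were the lowest of all, and MS275 arrays overlapped with control.

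With 1 nM rapamycin NEU1 fell by 1.42 ± 0.18 on the log2 scale against control (SE, adjusted p = 0.0127), a 2.67-fold lower signal. With 10 nM it fell by 1.20 ± 0.18 (adjusted p = 0.0130). The fall was 1.43 ± 0.18 with the 1 nM combination (log2 change -1.43, adjusted p = 0.000724) and 1.92 ± 0.20 with the 10 nM combination (log2 change -1.92, adjusted p = 0.000177, 3.80-fold). MS275 alone gave -0.26 ± 0.18, with a 95% confidence interval from -0.64 to 0.13 and an adjusted p of 0.726.

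Adding rapamycin to MS275 lowered NEU1 by the same kind of margin. The 1 nM combination differed from MS275 alone by -1.17 ± 0.18 (adjusted p = 0.0257, where 0.106% of all genes passed), and it was the only member called in that comparison. The 10 nM combination differed from MS275 alone by -1.67 ± 0.20 (adjusted p = 0.00360, where 0.253% of all genes passed). Adding MS275 to rapamycin gave -0.01 ± 0.18 at 1 nM (adjusted p = 0.980) and -0.73 ± 0.20 at 10 nM (adjusted p = 0.167). The departure from the sum of both single-drug changes was 0.24 ± 0.25 at 1 nM and -0.47 ± 0.27 at 10 nM, and neither passed (adjusted p = 0.725 and 1.00).

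The fall of NEU1 in the 2 combinations against control stayed past the threshold when each of the 17 arrays was left out in turn. The call with 1 nM rapamycin was lost without its replicate 1 (-1.40, adjusted p = 0.0887) or its replicate 3 (-1.42, adjusted p = 0.113), and the call with 10 nM was lost without its replicate 1 (-1.13, adjusted p = 0.0990). The call of the 10 nM combination against MS275 was lost without the combination's replicate 1 (-1.61, adjusted p = 0.0933). That of the 1 nM combination against MS275 was lost without any of its own 6 arrays (highest adjusted p = 0.143). Without the 2 narrow arrays NEU1 changed by -1.20, -0.98, -1.29 and -1.71 in the 4 groups with rapamycin, 1 nM and 10 nM rapamycin and the 1 nM and 10 nM combination, all past the threshold.

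GLA encodes alpha-galactosidase A, which removes terminal galactose from glycolipids and is the enzyme missing in Fabry disease. Its log2 signals were 10.94, 11.32 and 10.56 with MS275, 10.19, 10.64 and 9.95 with 1 nM rapamycin, 10.21, 10.62 and 10.0 with 10 nM rapamycin, 10.02, 10.35 and 9.38 with the 1 nM combination, 9.90 and 9.13 with the 10 nM combination, and 11.42, 11.59 and 10.97 in control. Every array with rapamycin was below every control array, and the MS275 arrays overlapped with control.

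GLA fell by 1.41 ± 0.31 with the 1 nM combination (log2, adjusted p = 0.0209) and by 1.81 ± 0.34 with the 10 nM combination (adjusted p = 0.00908, 3.51-fold). The changes with 1 nM rapamycin (-1.07 ± 0.31, adjusted p = 0.269), 10 nM rapamycin (-1.05 ± 0.31, adjusted p = 0.224) and MS275 (-0.38 ± 0.31, adjusted p = 0.774) did not pass. With the replicate number as a block, the change with 1 nM rapamycin passed (-1.07, adjusted p = 0.0461). In each group of 3, replicate 2 was the highest and replicate 3 the lowest for this gene. The call in the 1 nM combination was lost without control replicate 2 (-1.28, adjusted p = 0.0803), without the combination's replicate 3 (-1.14, adjusted p = 0.102) and without the 2 narrow arrays (-1.42, adjusted p = 0.0816), and that in the 10 nM combination without its replicate 2 (-1.43, adjusted p = 0.156).

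FUCA2 encodes a fucosidase that is secreted as well as lysosomal. Its log2 signals were 10.46, 10.34 and 9.93 with MS275, 10.34, 9.96 and 10.14 with 1 nM rapamycin, 10.63, 10.10 and 10.46 with 10 nM rapamycin, 9.35, 9.51 and 9.06 with the 1 nM combination, 9.04 and 8.91 with the 10 nM combination, and 10.16, 10.50 and 10.76 in control. All 5 arrays of the combinations lay below all 12 other arrays, while the single drugs overlapped with control.

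FUCA2 fell by 1.17 ± 0.21 with the 1 nM combination (log2, adjusted p = 0.00710) and by 1.5 ± 0.24 with the 10 nM combination (adjusted p = 0.00282, 2.83-fold). MS275 gave -0.23 ± 0.21, 1 nM rapamycin -0.33 ± 0.21 and 10 nM rapamycin -0.08 ± 0.21, with adjusted p-values from 0.649 to 0.957. The 10 nM combination was also lower than each of its drugs: by -1.27 ± 0.24 against MS275 (adjusted p = 0.0377) and by -1.42 ± 0.24 against 10 nM rapamycin (adjusted p = 0.0159), where 0.435% of all genes passed. The 1 nM combination differed by -0.94 from MS275 (adjusted p = 0.179) and by -0.84 from 1 nM rapamycin (adjusted p = 0.0739). In that last comparison no member passed, where 1.23% of all genes did, and 3 of 41 members had an unadjusted p under 0.05, as did 12.4% of all genes. The departure of FUCA2 from the sum of the single-drug changes was -0.61 at 1 nM and -1.19 ± 0.32 at 10 nM (adjusted p = 1.00 at 10 nM).

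The fall of FUCA2 in the 1 nM combination against control held with each array left out in turn. That in the 10 nM combination against control lost its call without the combination's replicate 2 (-1.44, adjusted p = 0.0503). The call against MS275 held in only 5 of 17 such fits, and that against 10 nM rapamycin in 13, being lost without replicate 1 or 3 of 10 nM rapamycin or either array of the combination.

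FUCA1 encodes the main lysosomal fucosidase, deficient in fucosidosis. It had log2 signals of 10.36, 10.67 and 10.38 with MS275, 9.74, 9.38 and 9.61 with 1 nM rapamycin, 9.91, 9.55 and 10.01 with 10 nM rapamycin, 9.84, 9.91 and 10.15 with the 1 nM combination, 9.56 and 9.91 with the 10 nM combination, and 9.52, 9.39 and 9.57 in control. The 3 MS275 arrays were the highest of the 17.

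FUCA1 rose by 0.98 ± 0.17 with MS275 (log2, adjusted p = 0.0123, 1.97-fold). The combinations gave 0.47 ± 0.17 at 1 nM (adjusted p = 0.222) and 0.25 ± 0.20 at 10 nM (adjusted p = 0.652), and 10 nM rapamycin alone gave 0.33 ± 0.17 (adjusted p = 0.807). The departure from the sum of the single-drug changes was -0.59 ± 0.25 at 1 nM and -1.07 ± 0.26 at 10 nM, and neither passed over all genes (adjusted p = 0.682 and 1.00). The rise lost its call without MS275 replicate 2 (0.88, adjusted p = 0.0593) and where the mean of both probe sets was used (0.61, adjusted p = 0.147). The second probe set of FUCA1 had a mean log2 signal of 3.64 over the arrays and gave 0.24 with MS275.

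**Figure D2:**
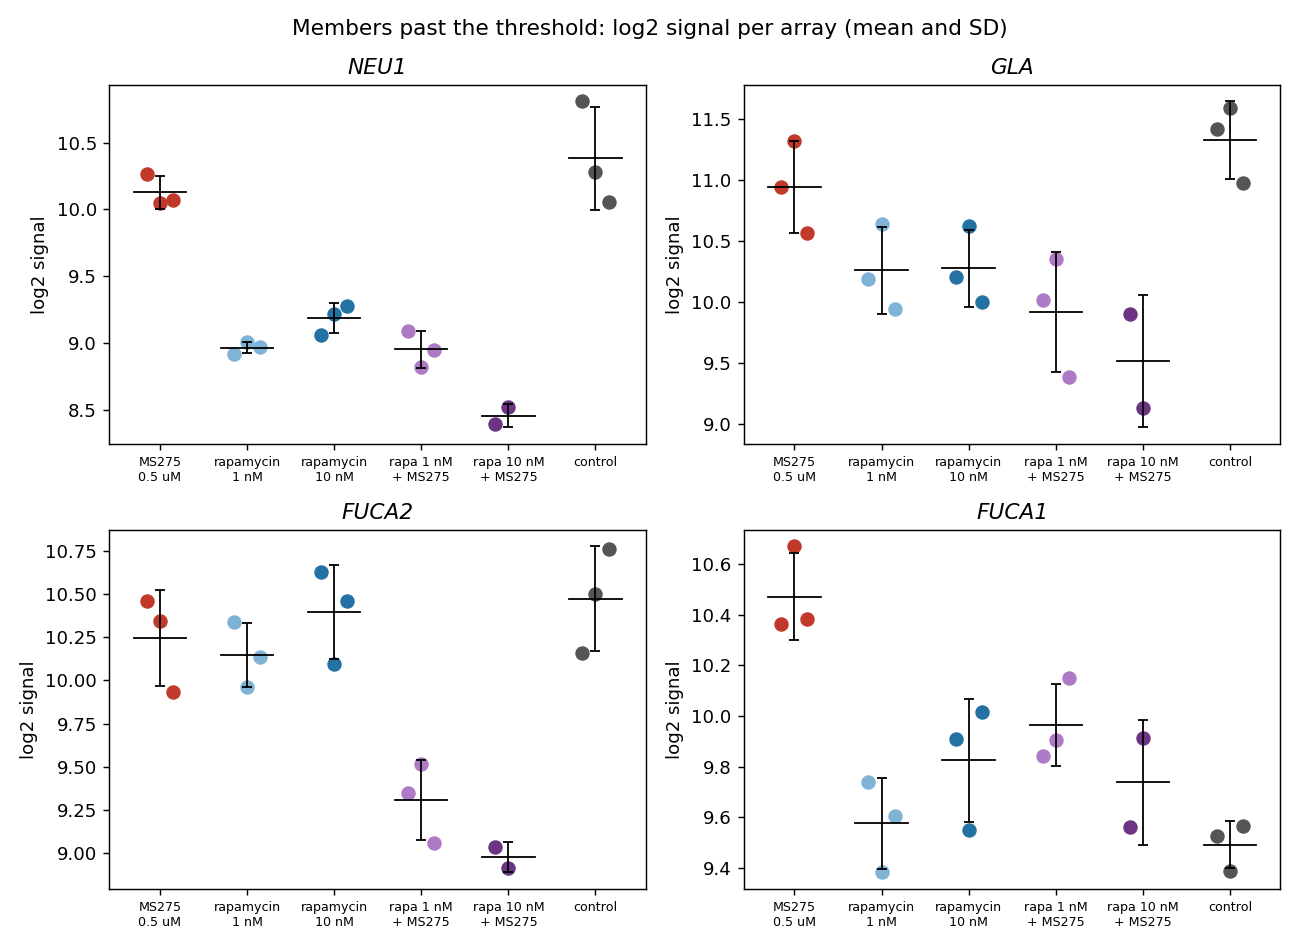
Log2 signal per array (points) of NEU1, GLA, FUCA2 and FUCA1 in the 6 groups, control at the right, with the group mean (line) and SD (bar). NEU1 lies between 8.40 and 9.27 on the 11 arrays with rapamycin and between 10.05 and 10.81 on the 6 arrays without it. FUCA2 is low in both combinations alone, and FUCA1 is highest with MS275.

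The promoter sequences of these 4 genes are shown because they changed in different groups although all encode glycosidases. Each run is the 250 bases before the annotated start site, from RefSeq on GRCh38.p14, read 5′ to 3′ on the gene's strand, which is the minus strand for all 4. They lie at chr6:31862822-31863071 (NEU1), chrX:101407926-101408175 (GLA), chr6:143511721-143511970 (FUCA2) and chr1:23868291-23868540 (FUCA1). Capitals mark the TFEB motif core CACGTG, the GC box GGGCGG and the CCAAT box, each on either strand.
NEU1: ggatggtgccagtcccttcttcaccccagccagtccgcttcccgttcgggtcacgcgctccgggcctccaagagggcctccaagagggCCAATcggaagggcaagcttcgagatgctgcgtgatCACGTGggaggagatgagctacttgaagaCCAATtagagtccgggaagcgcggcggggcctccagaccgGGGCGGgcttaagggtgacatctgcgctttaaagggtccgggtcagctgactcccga
GLA: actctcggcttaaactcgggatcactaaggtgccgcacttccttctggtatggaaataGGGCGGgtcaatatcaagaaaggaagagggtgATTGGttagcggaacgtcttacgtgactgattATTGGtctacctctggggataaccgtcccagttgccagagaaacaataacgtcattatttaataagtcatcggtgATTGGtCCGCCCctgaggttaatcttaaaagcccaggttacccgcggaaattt
FUCA2: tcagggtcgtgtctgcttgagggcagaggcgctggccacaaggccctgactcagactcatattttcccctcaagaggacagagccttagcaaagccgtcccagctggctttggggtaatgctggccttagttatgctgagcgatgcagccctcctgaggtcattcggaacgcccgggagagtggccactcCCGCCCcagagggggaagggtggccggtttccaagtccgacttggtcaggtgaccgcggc
FUCA1: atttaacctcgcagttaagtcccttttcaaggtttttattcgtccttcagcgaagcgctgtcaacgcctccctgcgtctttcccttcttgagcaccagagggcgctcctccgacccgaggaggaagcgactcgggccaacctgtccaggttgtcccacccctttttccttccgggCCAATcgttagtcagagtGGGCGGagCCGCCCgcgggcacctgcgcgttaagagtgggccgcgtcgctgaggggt
NEU1 holds 1 CACGTG, 126 bases before the start, with 1 GC box and 2 CCAAT boxes. GLA holds none in this window, with 2 GC boxes and 3 CCAAT boxes. FUCA2 has 1 GC box and neither of the other motifs, and FUCA1 has 2 GC boxes and 1 CCAAT box. These are matches of letters and not sites shown to be bound.

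The other 5 members of this class, 4 glycosidases and a sulfatase, did not pass against control. The beta-mannosidase gene MANBA had log2 signals of 8.55, 8.61 and 8.13 with 1 nM rapamycin, against 9.72, 9.24 and 8.86 in control, a change of -0.85 ± 0.28 (adjusted p = 0.366), and -0.65 ± 0.28 with 10 nM (adjusted p = 0.650). Without the narrow arrays these were -0.62 and -0.42. The arylsulfatase A gene ARSA had 8.84, 8.61 and 8.01 with the 1 nM combination, against 8.55, 7.03 and 7.52 in control, a change of 0.78 ± 0.35 (adjusted p = 0.368). Control replicate 1, at 8.55, is a narrow array and was the highest of its group, and the change without the narrow arrays was 1.04. HEXA, a subunit of beta-hexosaminidase, and GAA, the glycogen-degrading acid alpha-glucosidase, had changes from -0.37 to 0.31 in all 5 comparisons with control. Without the narrow arrays HEXA ran from -0.10 to 0.58 and GAA from -0.01 to 0.50. The beta-glucuronidase gene GUSB gave 0.04 with MS275 and 0.34 to 0.54 in the groups with rapamycin, with adjusted p-values from 0.591 to 0.984, and from -0.05 to 0.44 over the 5 comparisons without the narrow arrays.

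Of the 7 lysosomal proteases none passed. CTSA encodes the carboxypeptidase that protects the NEU1 sialidase. It had log2 signals of 9.66, 9.74 and 9.11 with the 1 nM combination and 9.68 and 8.90 with the 10 nM combination, against 10.07, 10.85 and 10.38 in control. The combination arrays lay below all control arrays, with changes of -0.93 ± 0.28 (adjusted p = 0.109) and -1.15 ± 0.31 (adjusted p = 0.0636). The first passed with the replicate number as a block (-0.93, adjusted p = 0.0436), and the second without the 2 narrow arrays (-1.33, adjusted p = 0.0409). Changes of CTSA with the single drugs were -0.35 with MS275, -0.56 with 1 nM and -0.31 with 10 nM rapamycin.

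The cysteine protease genes of the lysosome differed in sign. CTSB, cathepsin B, was at 11.14, 11.22 and 10.66 with MS275, against 10.29, 10.49 and 10.74 in control (0.50 ± 0.19, adjusted p = 0.318), and its changes in the 4 groups with rapamycin ran from -0.53 to -0.32. All 5 of its probe sets had a positive change with MS275, from 0.15 to 0.99. CTSZ, cathepsin Z, was at 9.84, 9.68 and 8.71 with MS275, against 9.36, 8.32 and 7.99 in control (0.85 ± 0.41, adjusted p = 0.500), and its second probe set gave -0.03. Without the narrow arrays the changes of CTSZ ran from 0.11 to 1.25, against a range from -0.29 to 0.85 with them.

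The aspartic protease cathepsin D (CTSD) had negative changes in all 5 comparisons, from -0.70 to -0.09, and from -0.44 to 0.18 without the narrow arrays. Cathepsin S (CTSS), an endopeptidase of antigen processing, reached -0.77 ± 0.29 with the 10 nM combination (adjusted p = 0.219) and ran from -0.62 to 0.02 over the 5 comparisons without the narrow arrays. Cathepsin L (CTSL) ran from -0.33 to -0.04, and from -0.08 to 0.14 without the narrow arrays, both of which lay above the other 15 for this gene. The tripeptidyl peptidase gene TPP1 had signals of 11.53, 11.84 and 11.29 with 10 nM rapamycin, against 10.82, 11.09 and 10.89 in control. Its changes were 0.40 with 1 nM rapamycin, 0.62 with 10 nM, 0.69 with the 1 nM combination and 0.60 with the 10 nM combination, with adjusted p-values from 0.278 to 0.688, and -0.02 with MS275.

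None of the 5 genes of lipid breakdown passed. LIPA, the acid lipase that frees cholesterol from its esters, had log2 signals of 11.15, 11.76 and 11.28 with MS275, against 8.39, 10.76 and 10.83 in control. MS275 arrays lay above control, with a change of 1.40 ± 0.53 (adjusted p = 0.288). The low value of 8.39 is the narrow control array, and the change without the narrow arrays was 0.60 ± 0.20 (adjusted p = 0.161). Changes of LIPA with 1 nM and 10 nM rapamycin were 0.38 and 0.46, and -0.42 and -0.34 without those arrays. The acid sphingomyelinase gene SMPD1 had 7.69, 7.73 and 7.73 with 1 nM rapamycin, against 8.93, 8.0 and 8.26 in control (-0.68 ± 0.25, adjusted p = 0.465). SMPD1 gave -0.71 ± 0.25 with the 1 nM combination and -0.95 ± 0.28 with the 10 nM combination (adjusted p = 0.186 and 0.0856). The value 8.93 is the narrow control array, and without the narrow arrays SMPD1 changed by -0.41 with 1 nM rapamycin, by -0.60 with the 1 nM and by -0.68 with the 10 nM combination.

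The palmitoyl-protein thioesterase gene PPT1 was negative in all 5 comparisons, from -0.59 in the 10 nM combination to -0.09 with MS275 (lowest adjusted p = 0.156). PSAP, the precursor of the saposins that activate sphingolipid hydrolases, kept between -0.21 and 0.20. The acid ceramidase gene ASAH1 ran from 0.26 to 0.62, and from -0.03 to 0.15 without the narrow arrays.

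The 4 membrane proteins did not pass. LAMP1, a heavily glycosylated coat protein of the lysosomal membrane, changed by -0.36 to 0.22. Both narrow arrays lay below the other 15 for LAMP1, and without them its changes were -0.23 with MS275, -0.34 with 1 nM and -0.27 with 10 nM rapamycin, -0.55 with the 1 nM and -0.50 with the 10 nM combination. LAMP2, which also serves chaperone-mediated autophagy, changed by -0.08 to 0.38, and by -0.00 to 0.59 without them. A less bright probe set of LAMP1 fell by 1.23 ± 0.28 with the 10 nM combination where every probe set was tested as its own feature (log2, adjusted p = 0.0361 over 54613 probe sets), while the brightest gave -0.05. Probe sets of LAMP1 thus disagreed. The tetraspanin gene CD63 was positive in all 5 comparisons, from 0.35 to 0.54, with a lowest adjusted p of 0.332, and from 0.53 to 0.75 without the narrow arrays. The calcium channel gene MCOLN1, a TFEB target, had 9.01, 8.93 and 8.65 with MS275, 8.13 and 7.82 with the 10 nM combination, and 8.18, 9.08 and 8.53 in control. Its changes were 0.27 with MS275 and -0.62 ± 0.25 with the 10 nM combination (adjusted p = 0.786 and 0.236), and 0.06 and -0.83 without the narrow arrays. Group means of MCOLN1 with 1 nM and 10 nM rapamycin and the 1 nM combination were 8.09, 8.22 and 8.16, against 8.60 in control. Without the narrow arrays the changes in these 3 groups were -0.72, -0.59 and -0.64 (limma, adjusted p from 0.188 to 0.359).

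The proton pump subunits ATP6V0D1, ATP6V1A and ATP6V1H had changes from -0.40 to 0.72, none of which passed. ATP6V1A held the value 0.72 with MS275. Its changes ran from 0.18 to 0.72, and from -0.24 to 0.09 without the narrow arrays, while those of ATP6V1H ran from -0.40 to -0.04, and from -0.63 to -0.32 without them. TFEB had group means from 7.74 to 8.04 and changes from -0.25 to 0.05, and the 95% confidence intervals include 0 in all 5 comparisons. TFE3 gave -0.63 ± 0.34 with 1 nM and -0.65 ± 0.34 with 10 nM rapamycin (adjusted p = 0.635 and 0.812). Its signals with 10 nM were 8.13, 8.21 and 8.49, against 9.64, 8.20 and 8.94 in control. The value 9.64 is the narrow array, and the changes without the narrow arrays were -0.27 and -0.29.

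**Figure D3:**
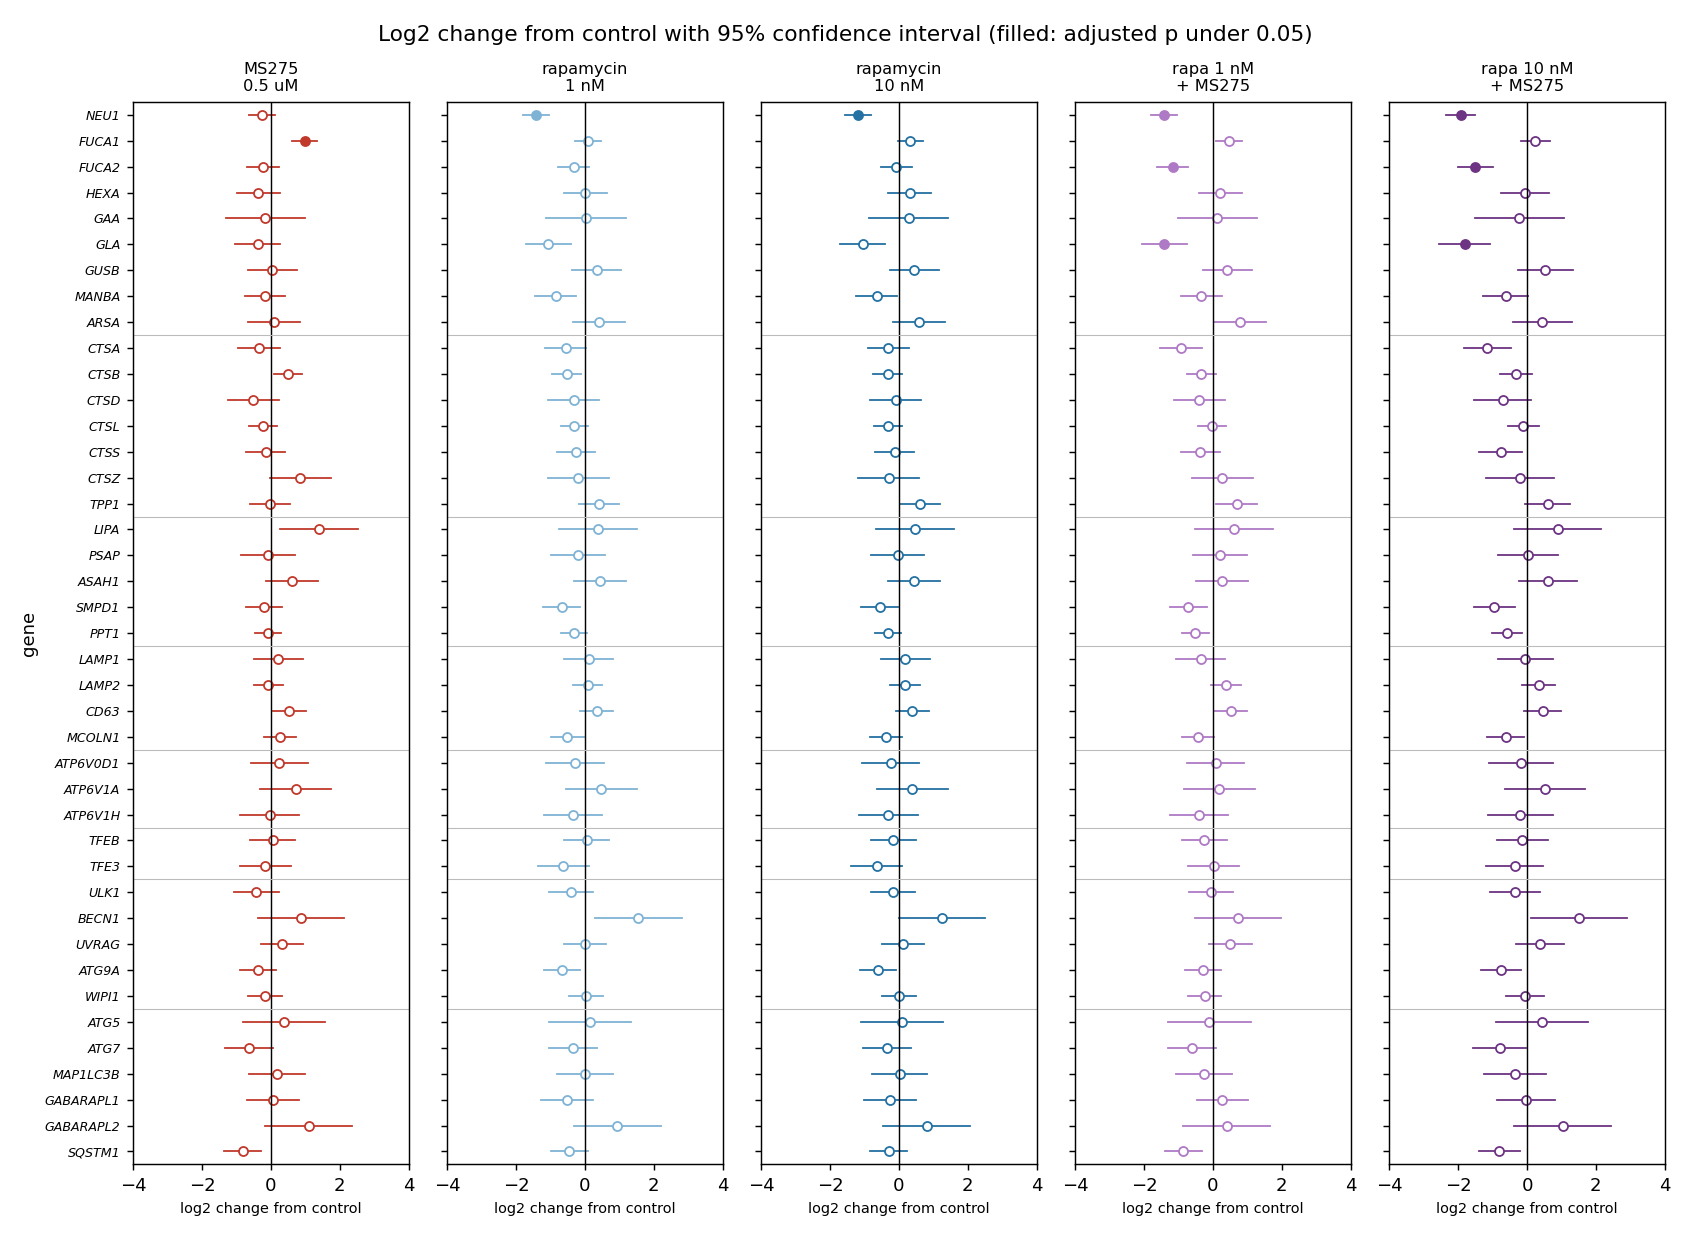
Log2 change against control of the 41 members (points, by role) with the 95% confidence interval of the limma fit (bars), in 5 panels for MS275, 1 nM and 10 nM rapamycin, and the 1 nM and 10 nM combination. Filled points have an adjusted p under 0.05: FUCA1 with MS275, NEU1 with either dose of rapamycin, and NEU1, GLA and FUCA2 with either combination.

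Among the autophagy genes, BECN1 had the widest range over the arrays of any member, 3.55 log2 units. Beclin 1, its product, is part of the lipid kinase complex that starts autophagosomes. Its signals were 8.65, 8.98 and 8.97 with MS275, 9.51, 9.33 and 9.80 with 1 nM rapamycin, 9.41, 9.32 and 8.97 with 10 nM, 7.52, 9.30 and 9.30 with the 1 nM combination, 9.10 and 9.89 with the 10 nM combination, and 6.34, 9.15 and 8.49 in control. Both narrow arrays (7.52 and 6.34) lay below the other 15.

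The changes of BECN1 were 0.87, 1.56, 1.24, 0.72 and 1.5 with MS275, 1 nM and 10 nM rapamycin and the 1 nM and 10 nM combination, and none passed (lowest adjusted p = 0.30). Without the narrow arrays they were 0.05, 0.73, 0.41, 0.49 and 0.68. Its second bright probe set gave -0.17 with MS275, -0.02 with 1 nM rapamycin and -0.08 with the 10 nM combination, so the probe sets of BECN1 disagreed. ATG9A, the membrane protein of the vesicles that seed autophagosomes, gave -0.67 with 1 nM rapamycin, -0.60 with 10 nM and -0.76 ± 0.27 with the 10 nM combination (adjusted p = 0.468, 0.611 and 0.180).

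The remaining 3 initiation genes did not pass, and each had a change of the opposite sign in at least 1 comparison without the narrow arrays. The kinase gene ULK1, whose product mTORC1 inhibits, ran from -0.42 to -0.05 over the 5 comparisons, and from -0.09 to 0.16 without the narrow arrays. UVRAG, a partner of beclin 1, ran from 0.00 to 0.51, and from -0.31 to 0.30 without them. The lipid-binding WIPI1 ran from -0.25 to 0.03, and from -0.13 to 0.07 without them.

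The last group covers the conjugation of small proteins to the growing membrane and the capture of cargo. GABARAPL2, one of these ubiquitin-like proteins, had signals of 11.16, 10.59 and 11.54 with MS275, 10.94, 10.50 and 11.34 with 1 nM rapamycin, 10.76, 10.48 and 11.17 with 10 nM, 9.09, 10.76 and 11.32 with the 1 nM combination, 10.44 and 11.61 with the 10 nM combination, and 8.65, 10.55 and 10.78 in control. The low values 9.09 and 8.65 are the narrow arrays. Changes of GABARAPL2 were 1.10 with MS275, 0.94 with 1 nM and 0.81 with 10 nM rapamycin, 0.40 with the 1 nM and 1.03 with the 10 nM combination, against 0.43, 0.26, 0.14, 0.38 and 0.36 without those 2 arrays.

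SQSTM1 encodes p62, the receptor that brings ubiquitinated cargo to the autophagosome. Its signals were 9.15, 8.03 and 8.83 with MS275, 8.60, 8.56 and 8.69 with the 1 nM combination, 8.54 and 8.81 with the 10 nM combination, and 9.62, 9.14 and 9.68 in control. With 1 nM rapamycin they were 8.92, 9.18 and 8.98, and with 10 nM 8.86, 9.30 and 9.40, and both groups overlapped with control. The combination arrays lay below control and the MS275 arrays overlapped with it by 1 array. The changes were -0.81 ± 0.25 with MS275 (adjusted p = 0.158), -0.86 ± 0.25 with the 1 nM combination (adjusted p = 0.0938) and -0.81 ± 0.28 with the 10 nM combination (adjusted p = 0.166). Over all comparisons with control, rapamycin alone included, the changes of SQSTM1 ran from -0.86 to -0.30.

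ATG7, the activating enzyme of the conjugation, was negative in all 5 comparisons, from -0.79 to -0.35 (lowest adjusted p = 0.336). A dim probe set of ATG7, with a mean log2 signal of 3.99, fell by 1.39 with MS275 and by 1.37 with the 10 nM combination when every probe set was tested (adjusted p = 0.0273 and 0.0293). ATG5, a part of the conjugation system, ran from -0.10 to 0.43, and from -0.37 to 0.04 without the narrow arrays, with the sign turned in all 5 comparisons. MAP1LC3B, which encodes the autophagosome marker LC3B, ran from -0.36 to 0.17, and from -0.42 to 0.11 without them. GABARAPL1 changed by 0.06 with MS275, by -0.52 with 1 nM and by -0.27 with 10 nM rapamycin, by 0.28 with the 1 nM and by -0.03 with the 10 nM combination. Without the narrow arrays these were 0.53, -0.04, 0.21, 0.43 and 0.44.

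**Figure D4:**
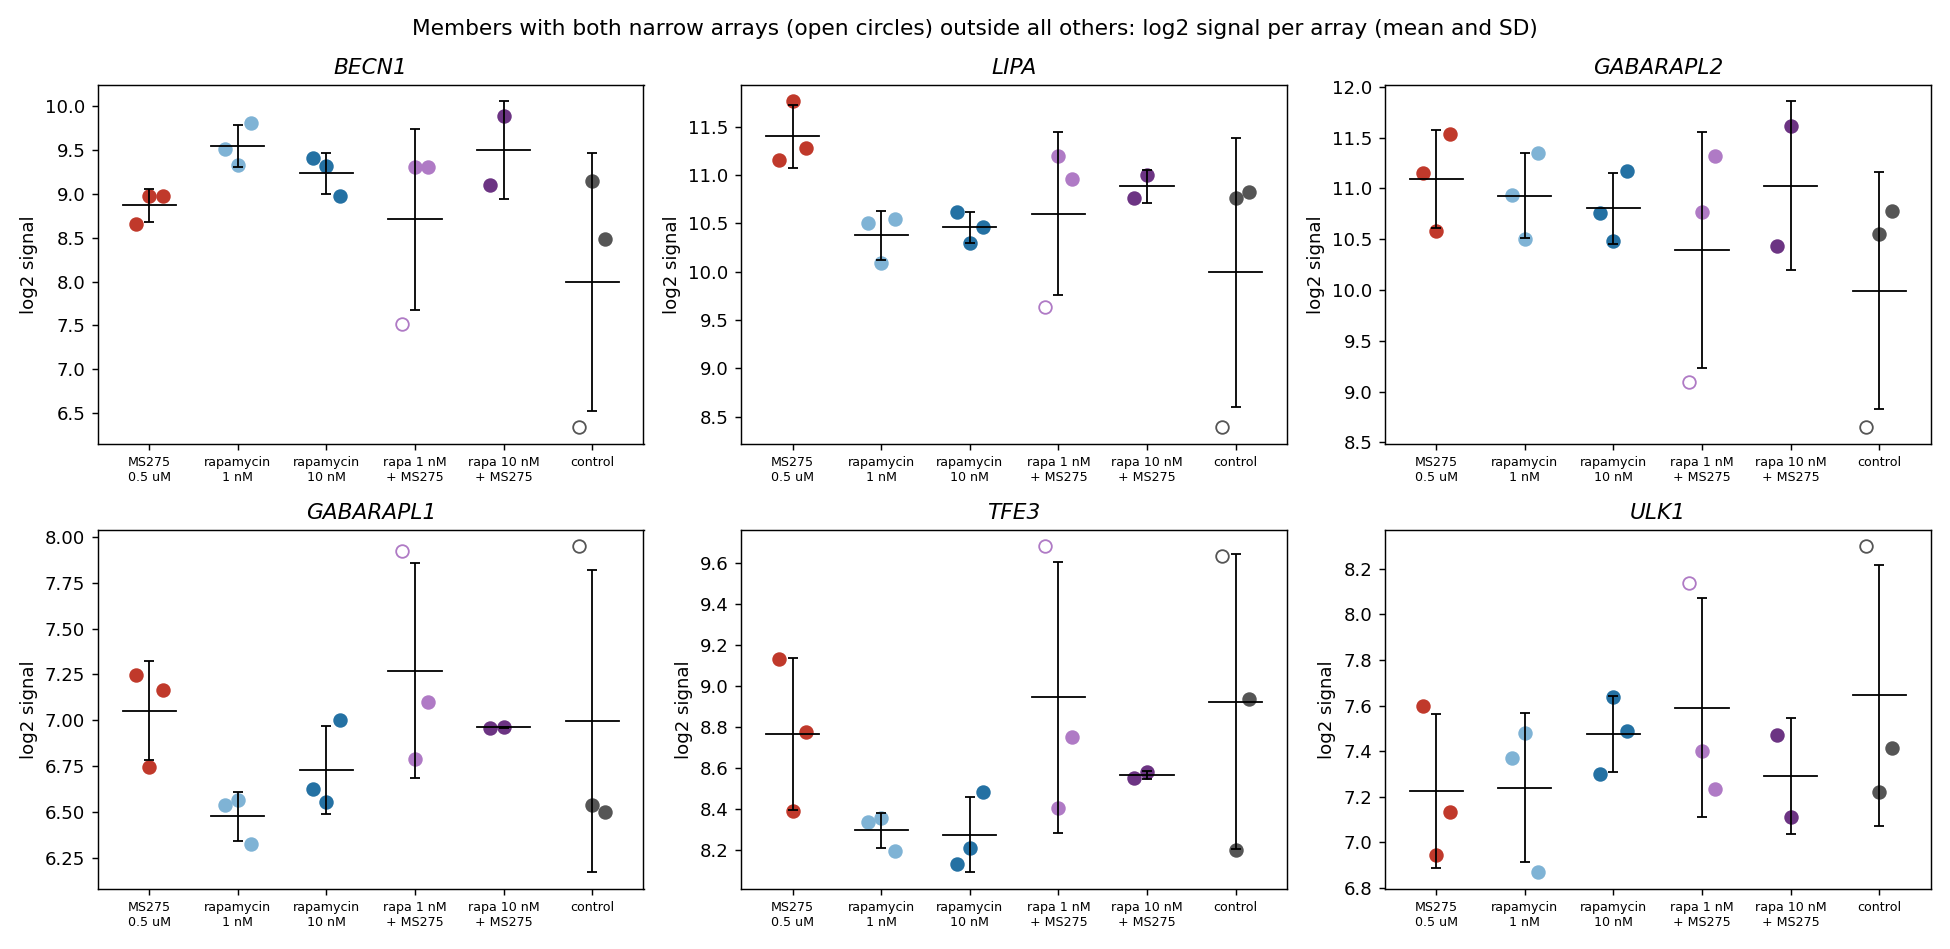
Log2 signal per array of BECN1, LIPA, GABARAPL2, GABARAPL1, TFE3 and ULK1 in the 6 groups, control at the right, with group mean (line) and SD (bar). Open circles are replicate 1 of the 1 nM combination and of control, the 2 arrays with a narrow spread. They lie below all other arrays for BECN1, LIPA and GABARAPL2 and above them for GABARAPL1, TFE3 and ULK1.

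The 2 narrow arrays were both below the other 15 for 7 members (ASAH1, ATG5, ATP6V1A, BECN1, GABARAPL2, LAMP1 and LIPA), 17.1% of the members and 10.4% of all genes. They were both above for 6 members (ATG9A, CTSL, GABARAPL1, HEXA, TFE3 and ULK1), 14.6% of the members and 22.8% of all genes. Replicate numbers moved with the members as well. In the 5 groups of 3 arrays, 14 of 41 members (34.1%) had the same number highest in all 5 groups or lowest in all 5, as did 26.3% of all genes. PSAP and GLA were highest in replicate 2 and lowest in replicate 3 throughout, and ATG5, ATP6V1A, ATP6V1H, GABARAPL2 and UVRAG were highest in replicate 3. The part of the replicate order in the group differences was not tested.

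Between the rapamycin doses no member passed, without MS275 or with it (0% of all genes passed in either comparison). At 10 nM against 1 nM alone no member had an unadjusted p under 0.05, where 0.121% of all genes did, and the changes ran from -0.32 (BECN1) to 0.30 (HEXA). Between the combinations NEU1 differed by -0.50 ± 0.20, with a 95% confidence interval from -0.92 to -0.07 and an adjusted p of 0.995. It was the only member with an unadjusted p under 0.05 there, where 0.769% of all genes had one. No member departed past the threshold from the sum of the single-drug changes at 1 nM or 10 nM (0% of all genes). Missing the threshold is no evidence of equal effect at both doses. The median 95% confidence interval of a member's log2 change reached 0.65 to either side between groups of 3.

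Other genes of the pathway were read from 4 lists: 38 measured lysosomal genes, 13 further proton pump genes, 13 genes of the mTORC1 and TFEB nutrient-sensing hub, and 48 further autophagy genes. Of these 112 genes, 1 was higher and none lower with MS275, 0.893% of them against 1.49% of all genes. None passed with 1 nM rapamycin (0.101% of all genes), where 19 of the 112 and 8.05% of all genes had an unadjusted p under 0.05. With 10 nM rapamycin 1 was lower, again 0.893% against 0.435% of all genes. The 1 nM combination had 2 higher and 3 lower, 4.46% against 2.70% of all genes, and the 10 nM combination 1 higher and 5 lower, 5.36% against 3.30% of all genes. None of the hub genes passed in any of these comparisons, and their median change was 0.45 with MS275, 0.24 with 1 nM and 0.11 with 10 nM rapamycin, 0.21 with the 1 nM and 0.16 with the 10 nM combination. All values for genes of these 4 lists, here and below, include the narrow arrays, and values without those arrays are not given. The part of the narrow arrays in these changes was not tested. These lists too were chosen with earlier results of these data known.

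The gene that rose with MS275 was LAMP3, a lysosomal membrane glycoprotein known from mature dendritic cells. It had log2 signals of 6.77, 7.79 and 7.0 with MS275, against 4.19, 4.17 and 3.53 in control, a change of 3.23 ± 0.38 (adjusted p = 0.000793). The 1 nM combination was at 4.32, 6.11 and 5.66, against 3.0, 3.61 and 3.0 with 1 nM rapamycin alone, a change of 2.16 ± 0.38 (adjusted p = 0.0118). MS275 and combination arrays were all above control for LAMP3. OPTN, an autophagy receptor, was also higher in the 1 nM combination than with 1 nM rapamycin alone, by 1.87 ± 0.33 (adjusted p = 0.0117).

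CTSV, cathepsin V, was the gene that fell with 10 nM rapamycin. Its log2 signals were 6.95, 6.91 and 7.0, against 9.27, 8.45 and 8.23 in control (-1.70 ± 0.27, adjusted p = 0.0174). It was also lower in the 10 nM combination than with MS275 alone (7.59 ± 0.13, n = 2, against 9.49 ± 0.53, n = 3, SD, adjusted p = 0.0163).

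In the combinations CTSC, the dipeptidyl peptidase cathepsin C that activates granule proteases, fell by 1.12 ± 0.23 at 1 nM and by 1.12 ± 0.25 at 10 nM (log2, adjusted p = 0.0140 and 0.0259). ATP6V0C, the proteolipid of the pump's membrane ring, fell by 0.74 ± 0.16 and by 0.99 ± 0.18 (adjusted p = 0.0241 and 0.00830). RUBCN, a negative regulator of autophagy, rose by 1.04 ± 0.25 and by 1.24 ± 0.28 (adjusted p = 0.0360 and 0.0249). The cholesterol exporters of the lysosome went opposite ways in the 1 nM combination: NPC1 fell by 0.82 ± 0.21 (adjusted p = 0.0487) and NPC2 rose by 0.95 ± 0.21 (adjusted p = 0.0252). In the 10 nM combination the ganglioside activator GM2A (-1.04, adjusted p = 0.0200), the membrane protein CLN3 (-1.22, adjusted p = 0.0450) and the protease ATG4D, which processes LC3-like proteins (-1.22, adjusted p = 0.0237), were lower.

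The motif bound by TFEB was then looked for in the RefSeq windows from 250 bases before to 50 after each start site, which held 30 of the 41 members in 44 promoters. The core CACGTG, which reads the same on both strands, was in 8 of the 44 member promoters (18.2%) and in 7.26% of all 35116 promoters. The 8 genes were NEU1, CTSD, CD63, LAMP1, ATP6V0D1, GAA, MCOLN1 and CTSA. The longer TCACGTG, in either direction, was in 7 of them and in 3.71% of all promoters, and TCACGTGA in 5 and in 0.980%. All 3 motifs overlap by construction. The members were chosen as genes of the class controlled by TFEB, which binds this core. A higher share in them than in all promoters is thus no result of these data. GGGCGG, on either strand, was in 35 of 44 member promoters (79.55%) and 45.0% of all, and CCAAT in 11 (25%) and 34.6%. TGATGNAA, the core of the amino acid response element, was in none and in 3.62% of all.

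A window of 30 bases around 1 copy per gene is shown for these 8 genes because the core is what they share. Capitals mark CACGTG, and the sequences are on the gene's strand, 5′ to 3′, from RefSeq on GRCh38.p14. The windows are chr6:31862930-31862959 (NEU1, minus strand), chr20:45891298-45891327 (CTSA, plus), chr19:7522571-7522600 (MCOLN1, plus), chr17:80101493-80101522 (GAA, plus), chr13:113297199-113297228 (LAMP1, plus), chr16:67481199-67481228 (ATP6V0D1, minus), chr11:1763957-1763986 (CTSD, minus) and chr12:55729172-55729201 (CD63, minus).
NEU1: atgctgcgtgatCACGTGggaggagatgag
CTSA: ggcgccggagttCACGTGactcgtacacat
MCOLN1: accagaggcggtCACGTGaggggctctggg
GAA: gggaggccgcgtCACGTGacccaccgcggc
LAMP1: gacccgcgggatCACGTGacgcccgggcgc
ATP6V0D1: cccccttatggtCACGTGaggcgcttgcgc
CTSD: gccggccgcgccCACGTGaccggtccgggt
CD63: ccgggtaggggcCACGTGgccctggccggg
The core begins 126 bases before the start in NEU1, 25 in CTSA, 41 in MCOLN1, 76 in GAA, 28 in LAMP1, 59 in ATP6V0D1, 47 in CTSD and 180 in CD63. LAMP1 has further copies that begin 192, 176, 159, 142 and 1 bases before the start. CTSA, MCOLN1 and GAA have a further copy each, at 42, 14 and 31 bases, so the copy shown for these genes is 1 of several. Of the 4 members that passed a test, NEU1 has the core, and GLA, FUCA2 and FUCA1 do not in this window. With MS275 the 8 genes with the core had a median log2 change of 0.03, against -0.05 in the 22 without it. Medians were -0.30 against -0.25 with 1 nM rapamycin, -0.16 against -0.17 with 10 nM, -0.38 against -0.08 with the 1 nM combination and -0.42 against -0.17 with the 10 nM combination. In the 10 nM combination 7 of the 8 genes with the core and 15 of the 22 without it had a negative change, and no test was made of that difference.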

How the data were processed

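Total RNA of L363 cells had been labelled as biotinylated antisense RNA and hybridised to 17 single-colour expression arrays. The deposited values are log2 signals per probe set, made with affy and RMA per the submitters' processing notes (versions and settings: not given in the sources used here). They were used without further normalization. The table holds 54613 probe sets, of which 41091 name 1 gene, 1801 several and 11721 none; 41037 were matched to RefSeq by gene number. Groups came from the sample labels. A model with 6 group means was fitted with limma 3.58.1 (R 4.3.3, lmFit and eBayes) to all 17 arrays, and p-values were Benjamini-Hochberg adjusted over 19775 genes, with a threshold of 0.05. All adjusted p-values are from limma; errors after ± are standard errors unless given as SD. The fitting code was tested on simulated data, for the 1 nM combination against control only. The simulated noise was independent and normal, with no replicate effect and no narrow arrays. The test therefore cannot show how well the threshold holds in these arrays. Precision is limited by how many arrays there are. The members and lists were chosen with earlier results of these data known. Members past the threshold or among the 6 largest changes in a comparison with control were named with array values, of all or some groups. Of the other lists, up to 4 genes per comparison were taken by the smallest adjusted p. Further values of other members and genes were added to describe each role. Replicate numbers were checked for pairing: same-numbered deviations from the group means correlated above 0.1 throughout in 7 of 10 group pairs (r from 0.29 to 0.85), which join MS275, 1 nM rapamycin, the 1 nM combination and control with each other and the rapamycin doses. The numbers of the 10 nM combination did not pair. Its replicate 2 correlated at -0.66 with replicate 2 of MS275, -0.74 with that of 1 nM and -0.63 with that of 10 nM rapamycin. This replicate 2 correlated at -0.35 with that of the 1 nM combination and at 0.01 with that of control. Replicate 1 of the 10 nM combination correlated at 0.07 to 0.39 with replicate 1 of the other groups. In a group of 2 arrays the deviations are equal and opposite, so its replicates are no separate readings. Alternatives were the replicate block, quantile normalization, array weights, the mean of all probe sets, fits without the narrow arrays or with only the groups compared, each array left out, and, chosen after seeing the data, every probe set tested.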

Additional observations from a re-analysis of the deposited data

How the results depend on the processing

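Counts of members past the threshold changed with the model more than with the scaling. With array weights they were 4 with MS275, 13 with 1 nM and 8 with 10 nM rapamycin, 5 with the 1 nM and 6 with the 10 nM combination against control, 1 for the 10 nM combination against MS275, 1 for the 1 nM combination against 1 nM rapamycin and 2 for the 10 nM combination against 10 nM rapamycin. With only the groups compared the count was 0 in each. With the replicate block they were 2 with 1 nM and 2 with 10 nM rapamycin and 6 with the 10 nM combination, with CTSA (-1.28, adjusted p = 0.0147), SMPD1 (-0.97, adjusted p = 0.0326) and ATG9A (-0.89, adjusted p = 0.0293) added there. The numbers of the 10 nM combination did not pair with those of other groups. Against the other drug groups r ran from -0.74 to -0.35 for replicate 2 and from 0.07 to 0.39 for replicate 1. These additions thus rest on a match that the deviations do not bear out. The block also brought GLA past the threshold with 10 nM rapamycin (-1.05, adjusted p = 0.0310) and in the 10 nM combination against MS275 (-1.61, adjusted p = 0.0112), and it ended none of the 13 calls. Over all genes, 295, 20, 86, 533 and 652 passed in the 5 comparisons with control as reported, 662, 112, 227, 1033 and 1343 with the block, 1504, 2804, 1951, 1400 and 1555 with array weights, and 9, 0, 0, 0 and 0 with only the groups compared. Quantile normalization gave 0 for the 1 nM and 1 for the 10 nM combination against MS275. The mean of all probe sets gave 0 for MS275 against control. Without the 2 narrow arrays 2 members passed for the 10 nM combination against 10 nM rapamycin. Against control, GLA then lost its call in the 1 nM combination (adjusted p = 0.0816). CTSA then passed in the 10 nM combination (adjusted p = 0.0409). With every probe set tested, a choice made after seeing the data, 2 of the 93 member probe sets passed with MS275. It was 1 with either rapamycin dose, 4 with the 1 nM and 5 with the 10 nM combination. Leaving out each array in turn gave 0 to 1 with MS275 and with either rapamycin dose, 2 to 4 with the 1 nM and 1 to 4 with the 10 nM combination against control, 0 to 1 and 0 to 2 for the 1 nM and 10 nM combination against MS275, 0 to 1 against 1 nM rapamycin and 0 to 2 against 10 nM rapamycin, and 0 between doses. The cause of these shifts was not tested. All 34 named changes kept their direction in the 24 alternatives run for each. They were chosen as past the threshold or among the largest changes in these same arrays. Of the 24 alternatives, 17 only left out 1 array, so a kept direction is no separate support for a change. Among all 205 member changes against control, 36 turned sign without the 2 narrow arrays. No detection calls were used, so the signal of a dim probe set over background is unknown.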
